A study of Danio rerio with 8 samples.

Results

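Expression differences between clutches were examined over all 8 libraries of the series, in which each of 4 clutches of zebrafish was represented by 1 library of mutant larvae and 1 library of sibling larvae. A clutch is the brood of eggs collected from one mating. The mutants were homozygous for smh (schmalhans), a mutation of ccdc103 that paralyses motile cilia, and were picked by their downward curl of the tail. The siblings, here called controls, held both wild-type and heterozygous larvae, so they are not a pure wild-type group. All larvae were untreated, were taken at 4 days post fertilization, and were pooled as 30 whole larvae per library. Clutch was the factor tested and genotype was a covariate, so that a gene passed the test when its clutch differences were large against the way in which mutants and controls of a clutch departed from one another. Genotype itself is not described. Values are log2 CPM, a logarithm of counts scaled to library size, a unit inferred from the numbers, which the authors had already given nearly the same distribution in every library. Sequencing depth is unknown. Of 30 defining markers of 15 cell types, 29 were in the table and all 29 were at or above 0 log2 CPM in every library. ccdc103 did not pass the test between clutches (range of clutch means 0.20 log2 units, adjusted p = 0.95, limma).

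Larvae of one clutch share parents and the time of fertilization. The hour of collection of each clutch is not given in the sources used here. At 4 days the larval digestive tract has begun to work, the eye is functional and photoreceptors are still being added, and most tissues hold a circadian clock of their own that light can reset directly in zebrafish. In that clock the Clock, Npas2 and Bmal (arntl) proteins switch on period, cryptochrome and Rev-erb (nr1d) genes, whose products repress them in turn, so the transcripts of these groups peak at different times of day. Parents, stage, hour of collection and handling cannot be told apart as sources of a difference between clutches in this design. In whole larvae, fewer cells of a type and less RNA per cell also cannot be told apart.

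Of 20154 genes tested, 7788 (38.6%) were called between clutches at an adjusted p under 0.05 (limma F test, Benjamini-Hochberg), and 865 of these (4.29%) had at least 2-fold between the highest and the lowest clutch mean. Most called differences were small. The median range of clutch means was 0.54 log2 units in called genes and 0.40 in all genes tested, 3275 called genes ranged over less than 0.5, and 55 ranged over at least 2. Clutch 1 stood apart from the rest. Against the mean of the other 3 clutches, 4511 genes (22.4%) were higher and 4002 (19.9%) lower in clutch 1. The same contrast gave 1354 (6.72%) higher and 1287 (6.39%) lower in clutch 2, then 900 (4.47%) and 875 (4.34%) in clutch 3, and 223 (1.11%) and 193 (0.958%) in clutch 4. These contrasts depend on one another, because the mean set against clutches 2, 3 and 4 includes clutch 1. A gene low in clutch 1 is thereby shifted towards higher in the others, also in the list counts below. With clutch 1 left out, clutches 2, 3 and 4 gave 770, 1751 and 870 genes, against 2641, 1775 and 416 with it. Between pairs, clutch 1 differed from clutches 2, 3 and 4 in 7855, 6225 and 5322 genes, whereas clutches 2 and 3 differed in 937, clutches 2 and 4 in 422, and clutches 3 and 4 in 1068. Without clutch 1, 2010 of 20147 genes (9.98%) were called, and without the control library of clutch 1 alone 4619 were. The count of calls also rested on how the spread of each gene was estimated, since a fit with neither a mean-variance trend nor robust estimation called 2638 (13.1%). Counts of list members called without clutch 1, or in this fit, are to be read against these 9.98% and 13.1%.

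**Figure D1:**
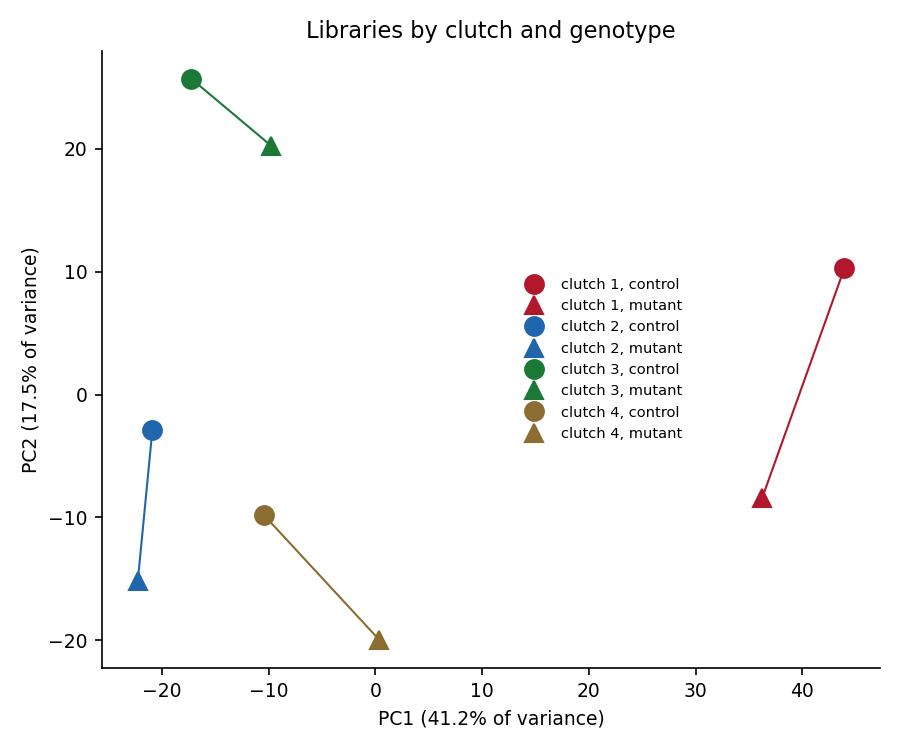
Principal components of the 8 libraries over all tested genes, with PC1 (41.2% of variance) on the x axis and PC2 (17.5%) on the y axis; circles are controls, triangles are mutants, and a line joins the pair of libraries of a clutch. Both libraries of clutch 1 lie at 36.2 and 43.9 on PC1, while the other 6 lie at or below 0.37, and clutch 3 lies highest on PC2 at 20.3 and 25.7.

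Clutch held more of the variation than genotype did. Over all genes, 66.7% of the summed squares lay between clutches, 13.8% between genotypes and 19.5% in the remainder, where the degrees of freedom alone (3, 1 and 3 of 7) correspond to 42.9% for clutch and 14.3% for genotype. The root mean square distance between libraries was 0.29 to 0.32 log2 units within the 4 clutches, 0.31 to 0.50 between clutches of the same genotype, and 0.34 to 0.54 where both differed. A choice made on controls alone can be read in the mutants, which it did not use. Of 1047 genes that reached 5 CPM and ranged over at least 1 log2 unit among the 4 controls, 870 (83.1%) had their lowest clutch in common with the mutants and 655 (62.6%) their highest. Over all tested genes these shares were 50.4% and 53.6%. Clutch 1 alone was the lowest clutch in 560 of the 865 genes called with at least 2-fold. The median difference between the highest and the lowest clutch of the controls was 1.2 log2 units in controls and 0.78 between the same clutches in mutants, and it was above 0 in 1025 mutant pairs (97.9%). The genes and the clutches were both picked on control values, so the control difference is at least 1 by choice. These medians therefore cannot show whether clutch differences were smaller in mutants.

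The circadian clock gave the most ordered pattern. Of 48 genes in the clock list, 41 (85.4%, against 38.6% of all genes) were called, 21 of them with at least 2-fold between clutch means, and the median range was 0.90 log2 units against 0.40. The cryptochrome gene cry1bb, named cry3b in RefSeq, had the smallest adjusted p of all genes tested. Taking clutches in order from 1 to 4, its level was 5.24, 3.14, 5.96 and 4.53 log2 CPM in controls and 5.1, 2.95, 6.06 and 4.31 in mutants. Both libraries of clutch 3 were high and both of clutch 2 were low, by 7.81-fold between the clutch means, with no overlap between any of the 4 clutches (adjusted p = 1.83e-10, limma). per1a, a period gene, ran the other way, with 5.78, 6.89, 5.08 and 6.84 log2 CPM in controls and 5.83, 6.93, 4.88 and 6.63 in mutants. Clutches 2 and 4 were high, clutch 3 was low and clutch 1 lay between (3.82-fold, adjusted p = 1.03e-09, limma).

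Other clock genes fell into the same orders. cry1ba, npas2, arntl1b, per1b, nr1d1, bhlhe41, ciarta, cry-dash, tefa and the clock genes that did not pass were chosen after their values were seen. Clutch 3 was highest and clutch 2 lowest for the cryptochrome cry1ba (clutch means 9.28 and 7.60 log2 CPM), for npas2 (5.16 and 3.82) and for arntl1b, a Bmal gene (4.31 and 3.41). Clutch 2 was highest and clutch 3 lowest for per1b (8.45 and 6.78), for nr1d1, a Rev-erb repressor (9.08 and 7.40), for the repressor bhlhe41 (5.96 and 4.22) and for dbpb, an output transcription factor (6.60 and 4.51). All of these were called (adjusted p between 1.30e-09 and 4.05e-04, limma). cry2 and ciarta, another repressor of the clock, were low in clutch 3 alone. cry2 stood at 5.08 log2 CPM in the control and 5.12 in the mutant of clutch 3, and between 6.51 and 6.92 in the other 6 libraries. ciarta stood at 6.07 and 6.01 log2 CPM in clutch 3 and between 7.27 and 7.45 elsewhere.

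Another pattern, with clutches 1 and 4 above clutches 2 and 3, was seen in further genes. cry5, which encodes the 6-4 photolyase that repairs ultraviolet damage, had 6.02, 4.06, 4.25 and 5.21 log2 CPM in controls and 5.67, 3.27, 4.40 and 4.89 in mutants. Clutch 1 was highest, clutch 4 next, and clutches 3 and 2 followed, with no overlap between any of the 4 clutches (4.54-fold, adjusted p = 3.53e-04, limma). cry-dash, of the same photolyase and cryptochrome family, had clutch means of 6.32, 5.06, 5.17 and 5.89 log2 CPM in the same order as cry5. tefa, an output factor, had 8.20, 7.11, 6.96 and 7.75, with clutch 3 rather than clutch 2 lowest. per2, a period gene that light induces in zebrafish, was highest in clutch 4, whose control had 9.28 log2 CPM and whose mutant had 8.96. The other 6 libraries had 7.65 to 8.58 (adjusted p = 0.0129, limma F test over clutches). The contrast of clutch 4 with the mean of the other 3 did not pass (adjusted p = 0.0516, limma). The Clock genes themselves varied little. clocka ranged over 0.35 log2 units (adjusted p = 0.0521) and clockb over 0.14 (adjusted p = 0.422), and neither passed the limma test, nor did the pineal genes exorh and aanat2 (adjusted p = 0.363 and 0.383). Without clutch 1, 38 of 48 clock genes were called, and with neither trend nor robust estimation 34 were.

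**Figure D2:**
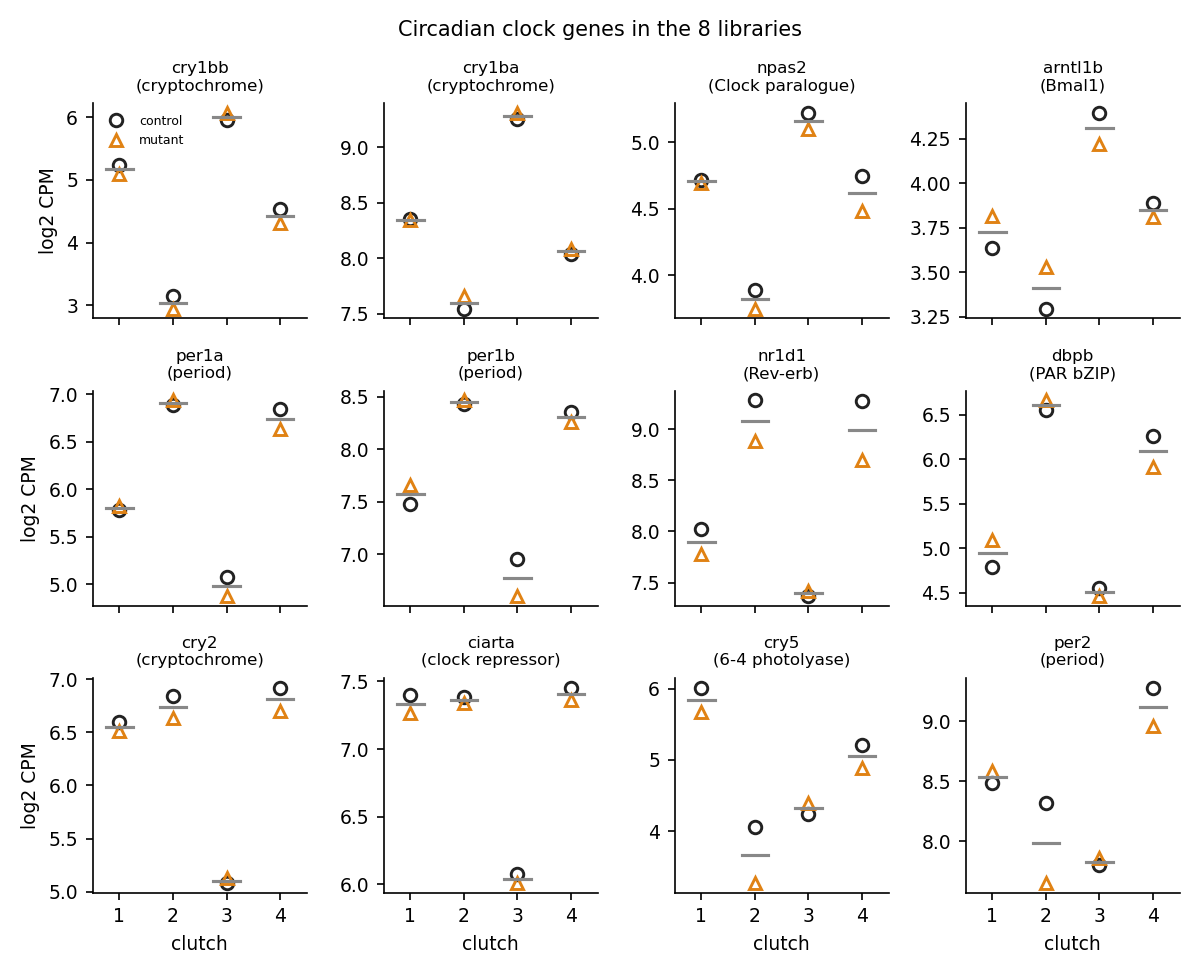
Level of 12 clock genes (y axis, log2 CPM, a separate scale per gene) in clutches 1 to 4 (x axis); black circles are controls, orange triangles are mutants and grey bars are the means of the 2 libraries. In cry1bb, cry1ba, npas2 and arntl1b clutch 3 is highest and clutch 2 lowest, in per1a, per1b, nr1d1 and dbpb clutch 3 is lowest and clutch 2 highest, and mutant and control lie farthest apart for cry5 and per2 in clutch 2.

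Genes of the exocrine pancreas varied most widely in level, by the median range of each of the 50 lists. In the exocrine pancreas list, which holds the digestive proenzymes that acinar cells secrete, 29 of 32 genes (90.6%) were called, 19 of them with at least 2-fold between clutch means, and the median range was 1.11 log2 units. Members were lower in clutch 1 in 27 cases (background 19.9%) and higher in clutch 3 in 25 cases (background 4.47%). cpa1, carboxypeptidase A1, had 4.37, 4.78, 6.08 and 4.43 log2 CPM in controls and 3.34, 4.19, 5.49 and 3.56 in mutants. Clutch 3 was highest in each genotype, by 3.81-fold between the highest and lowest clutch means, and controls lay above mutants in 4 of 4 clutches (adjusted p = 3.02e-08, limma). amy2a, pancreatic amylase, had 6.06, 6.90, 7.77 and 6.44 log2 CPM in controls and 5.13, 6.38, 7.34 and 5.38 in mutants, again with clutch 3 highest and clutch 1 lowest in both genotypes. The elastase gene ela3l and the chymotrypsin gene ctrb1 kept that order, with ranges of 1.71 and 1.17 log2 units, and pla2g1b, the pancreatic phospholipase, ranged over 1.72 with clutch 2 highest.

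The 2 acinar transcription factors on the pancreas list did not pass. ptf1a ranged over 0.16 log2 units (adjusted p = 0.89) and rbpjl over 0.10 (adjusted p = 0.989, limma), each at under 3 log2 CPM. Trypsin, chymotrypsin and elastase genes are near-identical copies in part, and how reads were shared between copies is unknown. A fit without genotype called 2 of 32 pancreas genes, against 28.1% of all genes. The difference between genotypes in this list then counts as error. cpa1, amy2a and pla2g1b were among those lost (adjusted p = 0.136, 0.138 and 0.255, limma). Without clutch 1 the count was 25, and with neither trend nor robust estimation 24.

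Intestinal genes followed the pancreas. In that list 45 of 55 genes (81.8%) were called, 25 with at least 2-fold. Of the 55, 35 were lower in clutch 1 (background 19.9%) and 31 higher in clutch 3 (background 4.47%). fabp6, the ileal bile acid binding protein, had 4.05, 5.84, 6.14 and 4.72 log2 CPM in controls and 3.68, 5.60, 5.75 and 4.03 in mutants. Clutches 2 and 3 lay above clutches 1 and 4 without overlap (4.23-fold, adjusted p = 1.12e-09, limma). npc1l1, which takes up dietary sterol, had 3.32, 4.97, 5.53 and 4.64 log2 CPM in controls and 3.06, 4.87, 5.14 and 4.07 in mutants. Clutch 1 was lowest in each genotype and clutch 3 highest (4.41-fold, adjusted p = 8.98e-09, limma). The peptide transporter slc15a1b, the aminopeptidase anpepb and the meprin mep1a.2 had their lowest mean in clutch 1 as well, with ranges of 1.71, 1.24 and 2.22 log2 units. lrp2b, a megalin-type endocytic receptor, reached a range of 3.23, from 0.33 log2 CPM in the control and 0.92 in the mutant of clutch 1 to 4.21 and 3.50 in clutch 3. The chitinase chia.2 reached 9.92 and 9.45 log2 CPM in clutch 3 (range 2.39, adjusted p = 0.00275, limma), but without clutch 1 it was no longer called (adjusted p = 0.118), nor without either library of clutch 1.

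Enzymes of cholesterol synthesis were highest in clutch 3. Of 31, 21 (67.7%) were called, 8 with at least 2-fold, and 14 were higher and 0 lower in clutch 3 (backgrounds 4.47% and 4.34%). cyp51, which demethylates lanosterol, had 4.99, 5.82, 6.64 and 5.17 log2 CPM in controls and 4.96, 5.45, 6.33 and 4.98 in mutants. Clutch 3 was highest, clutch 2 next, and clutches 1 and 4 overlapped (2.84-fold, adjusted p = 3.63e-08, limma). hmgcra, the rate-limiting reductase of the pathway, had clutch means that ranged over 1.24 log2 units in the same order, and sqlea, lss and msmo1 ranged over 1.70, 1.54 and 1.28. The desaturase fads2 and the elongase elovl2, which make long polyunsaturated fatty acids, were also highest in clutch 3 (ranges 1.74 and 1.55).

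**Figure D3:**
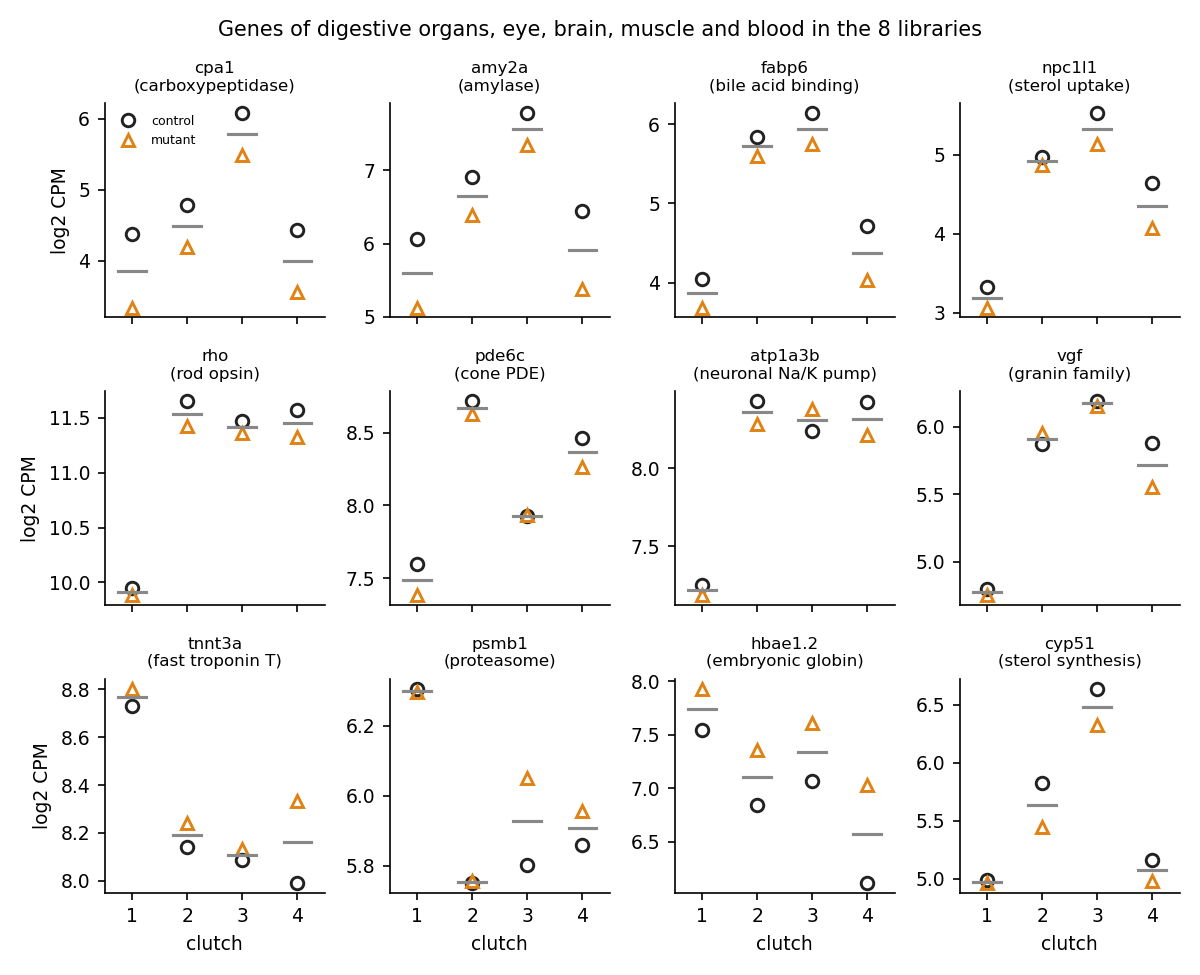
Level of 12 genes of digestive organs, eye, brain, muscle, blood and sterol synthesis (y axis, log2 CPM, a separate scale per gene) in clutches 1 to 4 (x axis), with symbols as in the plot of clock genes. cpa1, amy2a, npc1l1 and cyp51 are highest in clutch 3, rho and atp1a3b are low in clutch 1 alone, and tnnt3a and psmb1 are high in clutch 1.

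Photoreceptor genes were low in clutch 1. Of 26 genes of rod phototransduction and rod outer segments 18 (69.2%) were called, and 20 were lower and 0 higher in clutch 1 (backgrounds 19.9% and 22.4%). rho, the rod opsin, had 9.95, 11.66, 11.47 and 11.57 log2 CPM in controls and 9.88, 11.42, 11.37 and 11.33 in mutants. Both libraries of clutch 1 lay 1.55 log2 units (SE 0.06) below the mean of the others, while clutches 2, 3 and 4 overlapped (adjusted p = 4.62e-10, limma F test). The rim protein gene prph2b and the inhibitory phosphodiesterase subunit pde6ga were 1.07 (SE 0.07) and 1.56 (SE 0.21) lower in clutch 1. gnat1, the rod transducin subunit, ranged over 0.26 log2 units and did not pass (adjusted p = 0.12, limma).

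Cone genes were called in 24 of 27 cases (88.9%), with 17 lower in clutch 1 and 14 higher in clutch 2 (background 6.72%). The cone phosphodiesterase pde6c had 7.60, 8.72, 7.92 and 8.46 log2 CPM in controls and 7.38, 8.63, 7.93 and 8.27 in mutants, with clutch 2 highest and clutch 1 lowest. Members did not all move alike. arr3b, a cone arrestin, was 1.14 (SE 0.07) lower in clutch 3 than in the others, whereas pde6ha, an inhibitory phosphodiesterase subunit, was 1.17 (SE 0.10) higher there, although it was not called without genotype in the fit (adjusted p = 0.119, limma). The ultraviolet opsin opn1sw1 and the red opsin opn1lw2 ranged over 0.48 and 0.46 log2 units. Without clutch 1, 8 of 26 rod and 13 of 27 cone genes were called, against 9.98% of all genes, and with neither trend nor robust estimation 14 and 14 were, against 13.1%.

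Neuronal genes were lower in clutch 1 by small amounts. Of 98 neuronal and synaptic genes, 60 (61.2%) were called, and 63 were lower and 7 higher in clutch 1 (backgrounds 19.9% and 22.4%). The median difference of clutch 1 from the rest was -0.32 log2 units against 0.05 for all genes. atp1a3b, the neuronal sodium pump subunit, had 7.25, 8.43, 8.24 and 8.42 log2 CPM in controls and 7.18, 8.29, 8.38 and 8.21 in mutants. Clutch 1 lay 1.11 log2 units (SE 0.07) below the others, which overlapped. The kinase gene camk2b was 1.62 (SE 0.28) lower in clutch 1, and the granin family gene vgf 1.16 (SE 0.08). slc1a2b, a glial glutamate transporter, was 1.02 (SE 0.13) lower, but the radial glia list it belongs to had 17 genes higher and 7 lower in clutch 1 (median difference 0.12 log2 units). elavl3, an RNA-binding protein of neurons, was 0.33 lower in clutch 1, near the median of the list. snap25a, a synaptic fusion protein, did not pass (adjusted p = 0.364, limma). Without clutch 1, 3 of 98 neuronal genes were called, and with neither trend nor robust estimation 26.

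Genes used by nearly every cell went the opposite way in clutch 1. Proteasome subunits were higher there in 32 of 40 cases, oxidative phosphorylation genes in 70 of 104 and ribosomal protein genes in 56 of 86, against 22.4% of all genes. The shifts were small, with medians of 0.33, 0.27 and 0.21 log2 units. psmb1, which encodes a subunit of the proteasome core, had 6.31, 5.75, 5.80 and 5.86 log2 CPM in controls and 6.30, 5.76, 6.05 and 5.96 in mutants. Clutch 1 thus lay above all others. Without clutch 1 the counts called were 0 of 40, 7 of 104 and 4 of 86 (limma, with 3 of 40 proteasome genes at an unadjusted p under 0.05). These shares lie below the 9.98% of all genes in that fit. With neither trend nor robust estimation 3, 5 and 3 were called, each a smaller share than the 13.1% of all genes. psmb1 itself was not called in that fit (adjusted p = 0.0564, limma). Leaving out the control of clutch 1 alone called fewer members of each list than the main fit, and fewer of all genes. Leaving out its mutant called fewer ribosomal protein genes, and also fewer of all genes.

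Skeletal muscle genes changed little, with 0 of the called ones reaching 2-fold. Of 58 fast muscle genes, 25 (43.1%, against 38.6% of all genes) were called, 24 were higher and 1 lower in clutch 1 (backgrounds 22.4% and 19.9%), and the median range was 0.30 log2 units, below the 0.40 of all genes. tnnt3a, fast troponin T, had 8.73, 8.14, 8.09 and 7.99 log2 CPM in controls and 8.80, 8.24, 8.13 and 8.33 in mutants, which placed clutch 1 above the rest by 0.61 (SE 0.07). The creatine kinase ckma did not pass (range 0.20, adjusted p = 0.177, limma). With neither trend nor robust estimation 1 of 58 fast muscle genes was called, against 13.1% of all genes. Without clutch 1, 5 were called, also below the share of all genes (9.98%). Fewer were called without the control of clutch 1 as well, as was so for all genes. Slow muscle genes were called in 7 of 19 cases (36.8%), near the share of all genes, and 8 were higher and 0 lower in clutch 1. Without clutch 1, 0 of 19 were called (limma, 2 at an unadjusted p under 0.05), and with neither trend nor robust estimation 0 (limma, 5 at an unadjusted p under 0.05).

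Embryonic globins were high in clutch 1 and low in clutch 4. All 8 were called, all 8 were higher in clutch 1, and 7 were lower in clutch 4 (background 0.958%). hbae1.2 had 7.54, 6.84, 7.07 and 6.11 log2 CPM in controls and 7.93, 7.36, 7.61 and 7.03 in mutants. Clutch 1 was highest and clutch 4 lowest in each genotype, 2.24-fold apart, although controls and mutants of different clutches overlapped (adjusted p = 1.70e-05, limma). The more abundant hbae3 and hbbe1.1 ranged over 0.65 and 0.59 log2 units. Globin genes are tandem copies, and reads may have been shared between them. Other erythroid genes were called in 14 of 30 cases (46.7%), in 2 without clutch 1 and in 7 without clutch 2. Those 2 fits called 9.98% and 31.3% of all genes, larger shares than of this list. In clutch 1, 10 of these 30 were higher and 2 lower (backgrounds 22.4% and 19.9%). Their median difference of clutch 1 from the rest was 0.16 log2 units, against 0.05 for all genes. slc4a1a, the anion exchanger of red cells, ranged over 0.31 and was not highest in clutch 1. Without clutch 1, 4 of 8 globins were called, and without genotype in the fit 4, which did not include hbae1.2 (adjusted p = 0.278, limma). The fit without genotype called 28.1% of all genes.

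Lens genes differed between clutches in a way that the genotypes shared only in part. Of 56, 21 (37.5%) were called, close to the 38.6% of all genes. The list holds 21 crygm2d genes, a tandem family of gamma crystallins whose reads may be shared between near-identical copies. Of these, 8 were called, close to the share of all genes, and 12 were higher and 0 lower in clutch 1 (backgrounds 22.4% and 19.9%). crygm2d20, chosen after its values were seen, had 8.25, 6.77, 7.68 and 7.48 log2 CPM in controls and 7.95, 7.60, 7.79 and 7.69 in mutants. Clutch 1 was highest and clutch 2 lowest in both, but the control of clutch 2 lay well below every other library, and the gene did not pass (adjusted p = 0.215, limma). Over the list, the control of clutch 2 lay at a median of -0.67 log2 units from the other controls, and the mutant of clutch 2 at -0.09 from the other mutants. With 1 library of clutch 2 left out, the departure between its control and mutant no longer counts as error. Such a fit cannot show whether both genotypes shared a difference of clutch 2. Without clutch 1, 3 lens genes were called, and with neither trend nor robust estimation 4. Of 12 beta crystallins, 5 were called, also near the share of all genes, and 5 were lower and 1 was higher in clutch 1. crybb1 had 8.40, 9.41, 9.29 and 9.61 log2 CPM in controls and 8.34, 9.58, 9.62 and 9.57 in mutants, so that both libraries of clutch 1 were low, by 1.15 (SE 0.08) (adjusted p = 2.79e-07, limma). The alpha crystallin cryaa was lowest in clutch 1 too, with a range of 0.96.

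**Figure D4:**
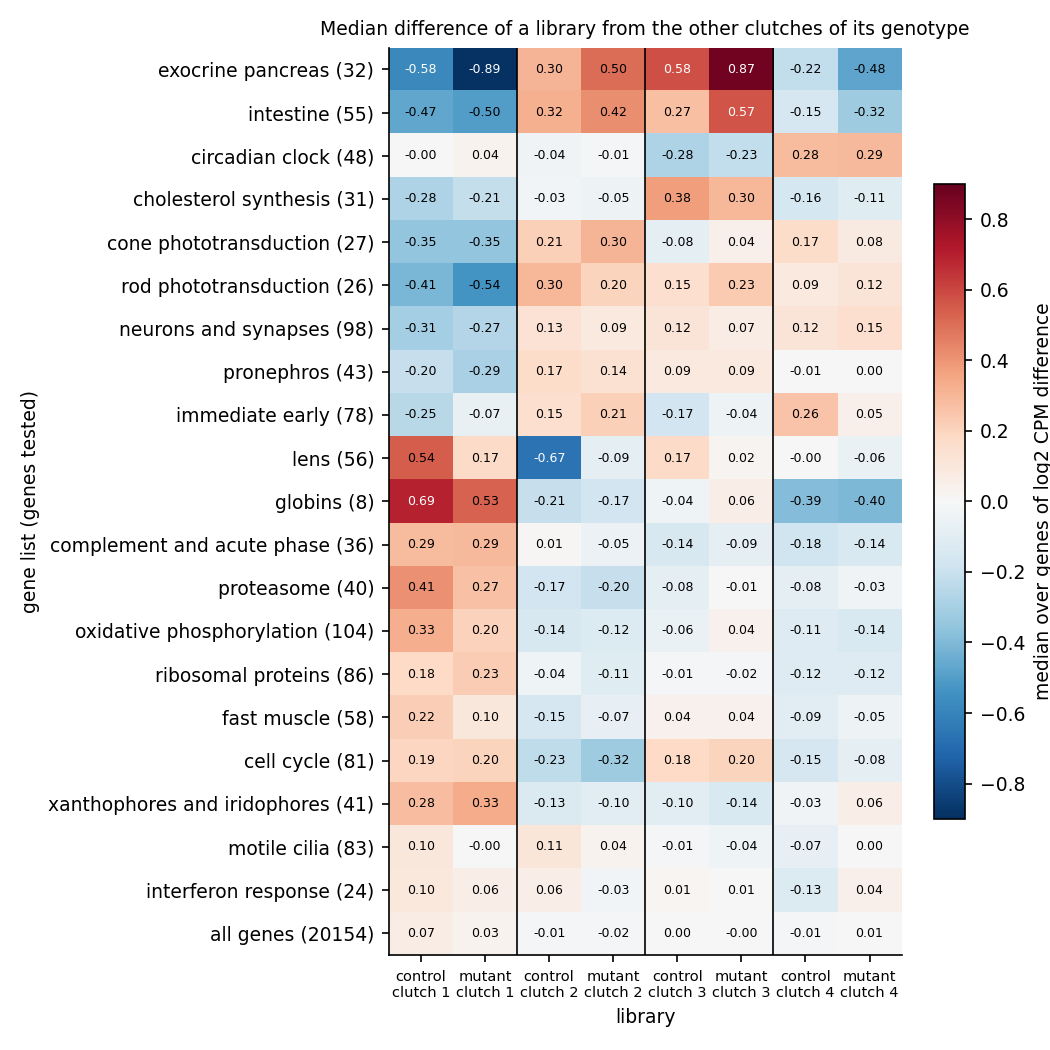
Median over the genes of a list (rows, with the number of genes tested) of the difference in log2 CPM between a library (columns) and the mean of the other 3 libraries of its genotype; red is higher and blue lower. The pancreas and intestine are low in clutch 1 and high in clutch 3 in both genotypes, the globins are high in clutch 1 and low in clutch 4, and the lens differs between the control (-0.67) and the mutant (-0.09) of clutch 2.

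Immediate early genes, which are transcribed within minutes of a stimulus such as neuronal activity, split into those that clutch mates shared and those that they did not. Of 78, 35 (44.9%) were called, not far from the 38.6% of all genes, and without clutch 1 19 (24.4%, against 9.98%). Lists may share genes, and the 2160 memberships of all lists fell on 2056 distinct genes. The period gene per1a is on both this list and the clock list. How much of the count rests on shared clock genes was not tested. fosaa, a Fos gene, had 1.74, 3.88, 3.35 and 3.40 log2 CPM in controls and 1.51, 4.16, 3.13 and 3.43 in mutants. Clutch 1 was lowest, by 1.94 (SE 0.12) against the others, and clutch 2 highest in both genotypes (adjusted p = 7.12e-08, limma). The activity-dependent factor npas4b and the nuclear receptor nr4a3 were 1.84 (SE 0.21) and 1.07 (SE 0.10) lower in clutch 1. By contrast fosab, the most abundant Fos gene here, had 5.70, 6.73, 4.36 and 6.99 log2 CPM in controls and 5.86, 6.05, 3.97 and 4.61 in mutants. Clutch 3 was lowest in both, but clutch 4 was the highest control and the next to lowest mutant, and the gene did not pass although its clutch means ranged over 2.23 (adjusted p = 0.25, limma). egr4, ier2b, npas4a and junbb, chosen like fosab after their values were seen, also had means that ranged over more than 1 log2 unit and did not pass (adjusted p between 0.181 and 0.35). In these 5 genes the control of clutch 4 lay above its mutant, for npas4a at 6.87 against 4.40 log2 CPM.

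Cell cycle genes were called in 56 of 81 cases (69.1%), 0 of them with 2-fold. In clutch 2, 37 were lower and 0 higher (backgrounds 6.39% and 6.72%), and in clutch 1, 36 were higher and 7 lower. prc1b, a protein of the mitotic spindle, had 3.34, 2.59, 3.34 and 2.91 log2 CPM in controls and 3.49, 2.47, 3.51 and 2.95 in mutants, with clutch 2 lowest in each (adjusted p = 2.51e-04, limma). The proliferation marker mki67 ranged over 0.51. With neither trend nor robust estimation 24 were called, and without clutch 1 35.

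Liver and pigment cells showed mixed patterns. Of 52 liver genes, 41 (78.8%, against 38.6% of all genes) were called, 8 with at least 2-fold. In clutch 1, 17 were higher and 15 lower (backgrounds 22.4% and 19.9%), and in clutch 4, 9 were lower and 0 higher (backgrounds 0.958% and 1.11%). In clutch 2, 13 were higher and 1 lower (backgrounds 6.72% and 6.39%), and in clutch 3, 13 were higher and 6 lower (backgrounds 4.47% and 4.34%). Complement and acute phase genes were higher in clutch 1 in 22 of 36 cases (background 22.4%). Factor B, cfb, stood at 6.2 and 6.50 log2 CPM there and at 5.26 to 5.88 elsewhere. c3a.3, a complement C3 gene, went the other way and was 0.72 (SE 0.08) lower in clutch 1. Genes of xanthophores and iridophores, the yellow and the reflecting pigment cells, were called in 31 of 41 cases (75.6%). gch2, which begins pteridine synthesis, was 1.16 (SE 0.13) lower in clutch 3 than in the others, and paics, an enzyme of purine synthesis, was 0.91 (SE 0.07) higher in clutch 1. Kidney tubule genes were lower in clutch 1 in 18 of 43 cases and higher in 3 (backgrounds 19.9% and 22.4%). Among the lower ones was cubn, the endocytic receptor cubilin (difference -1.27, SE 0.13). Without clutch 1 the counts called were 26 of 52 liver, 8 of 36 complement, 15 of 41 pigment cell and 6 of 43 kidney tubule genes. The share of all genes called in that fit was 9.98%.

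Few genes of motile cilia passed the test between clutches. Of 83, 8 (9.64%) were called, against 38.6% of all genes, although their median range of 0.41 log2 units was not below the 0.40 of all genes. The median share of a gene's summed squares that lay between clutches was 21.2%, against 70.7% over all genes. Mutants and controls had the same lowest clutch in 27 of the 83, against 50.4% of all genes. Their clutch differences were thus of usual size but were less often shared by the genotypes. foxj1a, a master regulator of motile cilia, ranged over 0.14 log2 units between clutch means (adjusted p = 0.849, limma). dnah5, an outer arm dynein heavy chain, was called (adjusted p = 0.0108) but not without either library of clutch 1 (adjusted p = 0.0556 and 0.0871) nor without genotype in the fit (adjusted p = 0.379). Without clutch 1, 1 of 83 cilia genes was called, against 9.98% of all genes. Interferon response genes were called in 3 of 24 cases (12.5%). Of the 7 germ cell genes measured 0 were called (limma, 0 also at an unadjusted p under 0.05). ddx4, the germ cell helicase vasa, was low at 0.26 to 1.2 log2 CPM, and it was called with neither trend nor robust estimation (adjusted p = 0.0345, limma).

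**Figure D5:**
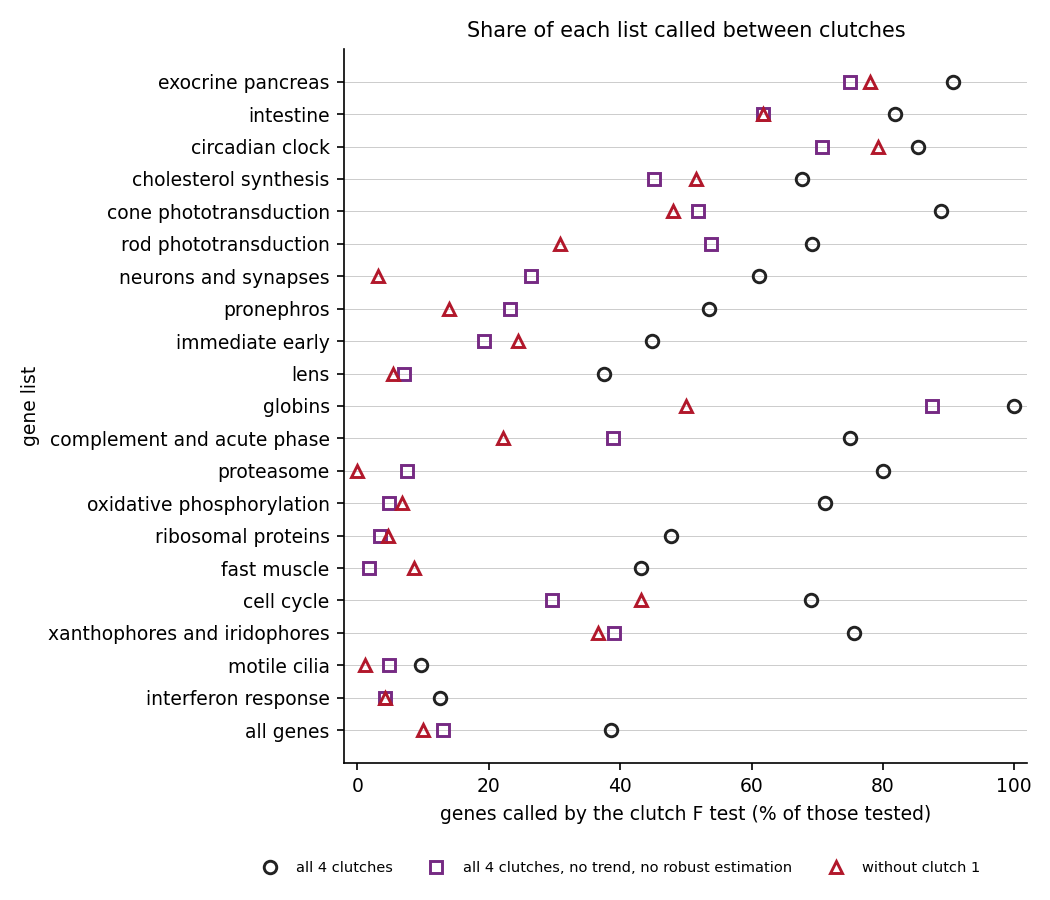
Share of the genes of each list that the clutch F test called (x axis, percent of those tested); black circles are the fit to all 4 clutches, purple squares the same fit with neither a mean-variance trend nor robust estimation, and red triangles the fit without clutch 1. For the exocrine pancreas and the clock the share stays above 70% in each of the fits shown, whereas for neurons, the proteasome and ribosomal proteins it falls to under 5% without clutch 1.

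Single genes with the widest differences came from several tissues. dao.1, a D-amino acid oxidase gene, had 2.53, 1.6, -2.48 and 2.37 log2 CPM in controls and 3.60, 2.22, -0.49 and 3.14 in mutants. Both libraries of clutch 3 were far below the rest, by 4.07 on the log2 scale (SE 0.23; adjusted p = 1.41e-07, limma F test). cyp2aa9, a cytochrome P450 gene, was also low in clutch 3, with 3.66, 2.90, 1.13 and 2.92 log2 CPM in controls and 4.16, 2.95, 1.46 and 3.29 in mutants. ahsg2, a fetuin gene, was lowest in clutch 1 (-0.50 log2 CPM in the control and -3.02 in the mutant) and highest in clutch 3 (3.00 and 2.98), and was not called without genotype in the fit (adjusted p = 0.0553, limma). ngs, named for the notochord granular surface, was 1.78 (SE 0.07) lower in clutch 1 (without genotype in the fit, adjusted p = 0.06), and the cartilage and notochord collagen col9a1b was 1.64 (SE 0.09) lower.

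Other genes marked single clutches. ace, angiotensin-converting enzyme, was highest in clutch 2 (7.64 and 7.59 log2 CPM in control and mutant) against 5.39 to 6.76 elsewhere. wdr76 and blvra, biliverdin reductase, were lowest there, by 1.32 (SE 0.10) and 1.11 (SE 0.15). smu1b, a splicing factor gene, was 1.79 (SE 0.20) lower in clutch 3. cyp1a, the cytochrome P450 induced through the aryl hydrocarbon receptor, was highest in clutch 4 with 6.09 log2 CPM in the control and 5.70 in the mutant, although the control of clutch 2 (5.61) came close to them (adjusted p = 2.95e-07, limma). mthfd1l, a mitochondrial folate enzyme gene, was 1.28 (SE 0.08) higher in clutch 1.

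Clone-named genes, whose symbols come from sequencing clones or predictions, made up a larger share of the wide differences than of all genes. They were 20.4% of genes tested, 35.1% of the 865 genes called with at least 2-fold, and 27 of the 55 with a range of at least 2. The widest was si:ch211-163b2.4, with 1.83, 1.86, -5.02 and 0.04 log2 CPM in the controls of clutches 1 to 4 and 1.47, 1.90, -5.02 and 1.29 in their mutants. Its value in both libraries of clutch 3 is the lowest in the whole table, and no fold change is given for it.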

How the data were processed

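Total RNA of pooled whole larvae was sequenced by BGI with DNBSEQ and reads were filtered with SOAPnuke 1.5.2, per the labels' protocols. GRCz11, HISAT2 2.0.4, Bowtie2, RSEM and limma are named without role or order, per the submitters' processing notes. The authors deposited normalized values per library, whose log2 CPM unit was inferred from the numbers: they sum to 997999 to 998006 CPM in every library, have nearly equal quantiles, and run from -5.02 to 14.04. Equal quantiles alone would also make the totals equal. No counts were used, so depth and the precision it gives are unknown. From the authors' deposited comparison of genotypes only gene symbols were taken. Its log2 fold changes, its p-value and adjusted p-value columns and its statistic and log odds score columns, deposited by the authors, were not used.

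Genes were kept for testing where 4 or more of the 8 libraries reached 0 log2 CPM (20154 of 20409). limma 3.58.1 in R 4.3.3 fitted clutch and genotype, with 3 residual degrees of freedom per gene, empirical Bayes moderation, a mean-variance trend and robust estimation. The clutch coefficients were tested jointly by an F test, each clutch against the mean of the other 3, and 6 pairs of clutches, each with Benjamini-Hochberg adjustment over all tested genes at 0.05. With 1 library per clutch and genotype, the error is the departure of clutch mates from parallel, and p-values measure that spread. The shared replicate numbers are clutches, per the labels, so same-numbered libraries come from the same brood.

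The comparison and the 50 gene lists were chosen with earlier results of these data known, and of 2012 symbols given 1669 matched the table directly, 59 through a RefSeq symbol and 22 through a synonym (GRCz12tu), while 262 were unmatched. After the values were seen, kinase and binding-protein genes were removed from the ribosomal list, an entry matched to a wrong gene from the germ cell list, and a list with no measured member was dropped. Named genes were, per clutch, the 4 highest and 4 lowest called genes with the same sign in both genotypes, at least 5 CPM in the highest clutch and no clone name (dao.1, ahsg2, ctsbb, smu1b and chia.3 were below that on average), then the 5 smallest adjusted p, from each list the 4 called genes of widest range (or the 2 most abundant where 0 were called), and the clone-named gene with the widest range. Genes in the text outside this rule were chosen after their values were seen.

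The procedure was tested on simulated data for these genes. Large changes were recovered, and false calls stayed near the nominal rate where variances followed the fitted model or where as many genes were changed as were called here. The planted changes were at least 0.5 log2 units, whereas 3275 of the genes called here ranged over less than 0.5. The case with many changed genes therefore cannot give the share of false calls among the 7788. Where few genes were changed and some genes were far more variable than the rest, more unchanged genes were called than the threshold states. The variances in that case were the moderated ones of these data. A further case, with the residual variance of each gene, is not reported here. Alternatives were no genotype term, no filter, a mean of at least 5 CPM, neither trend nor robust estimation, centring on the median, quantile normalization again, and leaving out each library and each clutch. Of the libraries found far from their group, 1 is counted but not reported here.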

Additional observations from a re-analysis of the deposited data

Results flagged for a closer look

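Among 410 groups of 4 libraries (205 named genes in 2 genotypes), 27 held 1 library far from the other 3. The rule flags about 5% of groups by chance. Most of these genes were chosen for wide differences between clutches in the same values, so that rate does not apply to them. Of the 27 far libraries, 19 were of clutch 1 and 8 of clutch 3. Values below are in log2 CPM.

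In clutch 1, the control was far below the other controls for atp1a3b (7.25), camk2b (0.915), col9a1b (6.39), elnb (3.32), irs2b (5.33), ngs (4.92), rho (9.95), slc1a2b (8.40) and syn2b (5.45). It was far above them for cyt1l (10.8), fgf10a (3.15), lrata (2.08) and psmd12 (6.23). The mutant of clutch 1 was far below the other mutants for atp1a3b (7.18), crybb1 (8.34), rho (9.88) and trh (1.71), and far above them for casq1b (7.03). For atp1a3b and rho both libraries of the clutch stood apart.

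In clutch 3, the control was far above the other controls for ahsg1 (3.00) and far below them for guca1a (-0.906) and socs3a (3.66). The mutant was far below the other mutants for cry2 (5.12), lpin1 (6.64), si:ch211-163b2.4 (-5.02), slc2a15b (2.21) and sprb (-0.235).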

How the results depend on the processing

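The clutch term is the replicate block of the series, and the genotype term was dropped to fit that replicate block alone. This called 5671 genes by the F test, 1244, 849 and 44 for clutches 2, 3 and 4 against the rest, and 427, 70 and 377 between clutches 2 and 3, 2 and 4, and 3 and 4. By construction the genotype difference then counts as error. Requiring a mean of at least 5 CPM left 505 genes with 2-fold. With neither trend nor robust estimation the F test called 2638, of which 2496 were among the 7788. Clutches 2, 3 and 4 then gave 354, 515 and 0 genes (limma, 2835 at an unadjusted p under 0.05 for clutch 4). The pairs 1 and 3, 1 and 4, 2 and 3, 2 and 4, and 3 and 4 gave 3612, 1668, 108, 0 (limma, 2455 at an unadjusted p under 0.05) and 187. The cause was not tested. Leaving out 1 library or 1 clutch gave 2010 to 7725 genes by the F test and 245 to 1192 with 2-fold. For clutches 1 to 4 it gave 3714 to 8359, 299 to 4412, 635 to 2697 and 96 to 1398. For the pairs it gave 4237 to 7952 (1 and 2), 2940 to 5899 (1 and 3), 1190 to 5508 (1 and 4), 270 to 1357 (2 and 3), 89 to 597 (2 and 4) and 450 to 1519 (3 and 4). Where an arm kept 1 library, it was assumed to vary like the others. Centring on the median and quantile normalization again moved no library by more than 0.0031 log2 units, and all 205 named genes kept their direction and call. Of these 205, 36 lost their call without genotype, and 46 with neither trend nor robust estimation, where ddx4 gained one (adjusted p = 0.0345, limma). The direction of hook2 reversed without the mutant of clutch 2 (0.0521 log2 units, adjusted p = 0.974; leaving out other libraries or clutches gave values down to -0.253), and this gene was not called in any case. Depth is unknown and sets no stated limit here.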

Other observations

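Other gene lists differed in the direction of their clutch differences. A called share above the 38.6% of all genes was seen in 39 of the 50 lists. Genes of epidermal keratins and mucous cells were called in 33 of 57 cases (57.9%). Of these 57, 24 were higher and 6 lower in clutch 1 (backgrounds 22.4% and 19.9%). Those of radial glia were called in 27 of 44 (61.4%), with 17 higher and 7 lower there (same backgrounds). Cartilage and notochord matrix genes were called in 27 of 48 cases (56.2%), with 18 lower and 8 higher in clutch 1 (backgrounds 19.9% and 22.4%). Genes of leukocytes (12 of 42), vascular endothelium (11 of 40) and neuropeptides (9 of 41) were called below the 38.6% of all genes.

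Of 807 genes called with at least 2-fold and placed in the GRCz12tu gene order, 121 (15.0%) had such a gene as a direct neighbour, as did 1450 (7.79%) of the other 18615 genes placed. Of these 121, 66 had such a neighbour that deviated most in the same clutch and in the same direction. The remaining clutches were not compared. How often such genes match in this way without being neighbours was not tested, so the 66 are given without a background. Clutch 1 was the lowest clutch in 560 of the 865 genes called with at least 2-fold, wherever they were placed.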
